A study of Homo sapiens with 6 samples.

Results

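The genes examined here encode 10 receptors through which growth factors and cytokines act on myeloid cells. They are CSF1R, KIT, FLT3, CSF3R, CSF2RA, IL3RA, CSF2RB, IL6R, IL6ST and IFNGR1. They were chosen by name and found by their symbols in a table of 33981 genes. All 10 had a row, and all 10 were among the 19182 genes that passed the filter on low counts. The cells were THP-1, a human monocytic line from an acute myeloid leukaemia (AML), grown in suspension and infected with lentivirus. One group of 3 samples (C1, C3 and C4) carried a scrambled shRNA, and the other group of 3 samples (N1, N2 and N3) carried an shRNA against NFIC, a transcription factor of the nuclear factor I family, and is also called NFIC KD for knockdown. Both groups were sorted for the GFP of the vector 4 days after infection, and mRNA was sequenced in bulk. The labels do not name the hairpin, which the study gives as sh494, a single hairpin against NFIC. The labels and the study's results call the control a scrambled shRNA, and its main and supplementary methods describe it as GFP only. The study's results name the scrambled samples C1, C2 and C4, where the labels have C1, C3 and C4. Neither the labels nor the study says that the 3 samples of a group came from separate cultures. The p-values below thus measure the spread between these samples, which may be technical.

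Receptor tyrosine kinases such as CSF1R, KIT and FLT3 bind their ligand, pair up and phosphorylate each other inside the cell. The cytokine receptors have no kinase of their own and work through JAK kinases bound to their tails, which pass the signal to STAT transcription factors. In the blood system KIT and FLT3 are known from stem and progenitor cells, CSF1R from monocytes and macrophages, and CSF3R from neutrophils and their precursors.

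Total counts were between 20369543 and 24809720 per sample, and 3 counts, taken as the smallest detectable amount, corresponded to between 0.122 and 0.146 CPM (counts scaled to the library size). Without molecular identifiers, such limits allow for counting error only. NFIC itself had 911, 1019 and 904 counts in the scrambled samples and 399, 518 and 493 after NFIC KD, a log2 fold change of -0.99 (SE 0.0723, edgeR quasi-likelihood test, adjusted p = 3.73e-09). All 11 monocyte markers were expressed and tested, with a summed level of 1620 to 1730 CPM in scrambled and 1620 to 1780 CPM in NFIC shRNA samples. Of them 3 rose (CD14, ITGAM and LYZ) and 5 fell (CD33, CD68, CSF1R, CD4 and CLEC12A). By the same rule, given below, 29.6% of all genes tested rose and 30.3% fell. The similar sums of the monocyte markers hold opposite changes of abundant genes. LYZ rose from 572 to 940 CPM, while CD4 fell from 456 to 278.5 CPM and CD68 from 261 to 130 CPM. Summed markers of T cells, erythroid cells and mast cells stayed under 2 CPM in every sample. Other marker sums were lower with NFIC shRNA without overlap. B cell markers summed to between 23.1 and 25.1 CPM in scrambled and between 16.3 and 17.9 CPM in NFIC shRNA samples. For megakaryocyte markers these ranges were 11.3 to 13.8 and 6.98 to 7.93 CPM, and for epithelial markers 5.32 to 6.14 and 0.997 to 2.03 CPM. Their part in the receptor differences was not tested. On the second principal component, which held 7.37% of the variance, C3 and N3 stood apart from the other samples, and the receptor calls without this pair are given below.

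Of the 10 receptors, 5 fell with NFIC shRNA (CSF1R, KIT, FLT3, CSF3R and IL3RA), 2 rose (IL6ST and IL6R) and 3 did not pass the test (CSF2RA, CSF2RB and IFNGR1). The test was edgeR's quasi-likelihood test on the counts, with Benjamini-Hochberg adjustment over all 19182 genes tested and a threshold of 0.05. The knockdown moved a large part of the transcriptome. By this rule 59.9% of all genes tested were called, 29.6% higher and 30.3% lower, against 7 of the 10 receptors. The share of receptors called was thus near that of all genes. The groups did not overlap, meaning that every sample of one lay above every sample of the other, for 65.2% of all genes and for the same 7 receptors. An absolute log2 fold change of at least 1 was also required for a shorter list, which held 11.9% of all genes and 2 receptors, KIT and IL6ST. The median log2 fold change of the receptors was -0.17, against -0.01 over all genes, and the median absolute value was 0.40, against 0.37. With C3 and N3 both left out, 2 receptors rose, 5 fell and 2 had an absolute log2 fold change of at least 1. In bulk RNA, fewer cells that express a receptor and less of its RNA per cell cannot be told apart.

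**Figure D1:**
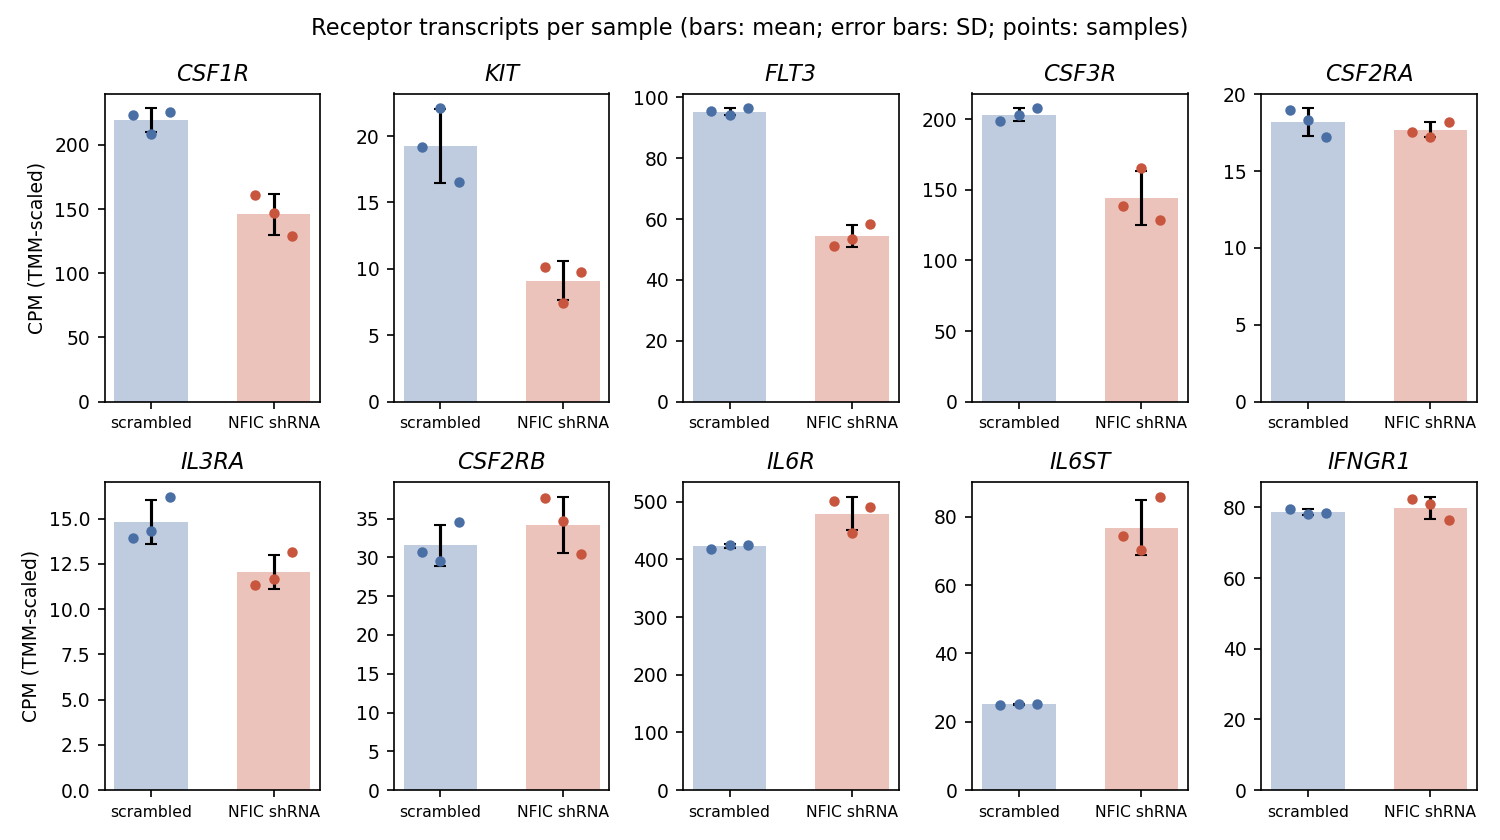
Level of each receptor transcript in each sample, in CPM scaled by TMM factors (vertical axes, each from 0), with the scrambled samples on the left and the NFIC shRNA samples on the right of each panel. Bars are means, error bars are SD over 3 samples and points are samples; the points of the groups lie apart in 7 panels and overlap for CSF2RA, CSF2RB and IFNGR1.

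The 3 receptor tyrosine kinases all fell. CSF1R is the receptor for the macrophage growth factor CSF1 and for IL34, and FLT3 and KIT are the receptors for FLT3 ligand and stem cell factor. CSF1R lies on chromosome 5 of GRCh38 from 150053291 to 150113372 on the minus strand. It had 4829, 5138 and 4841 counts in the scrambled samples and 3327, 3411 and 2981 after NFIC KD. Every scrambled sample lay well above every NFIC shRNA sample. The mean fell from 219 ± 9.29 to 146 ± 16.1 CPM (SD, n = 3 each), to 66.5% of the scrambled level. The log2 fold change was -0.59 (SE 0.0677, 95% interval -0.73 to -0.45, edgeR adjusted p = 1.53e-06). The pseudogene RPL7P1, which lies within CSF1R on the opposite strand, had between 26 and 58 counts in any sample.

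FLT3 (chromosome 13 of GRCh38, 28003274 to 28100592, minus strand) had 2066, 2318 and 2064 counts in the scrambled samples and 1057, 1242 and 1348 after NFIC KD. Its scrambled samples were close to each other, and the highest NFIC shRNA sample was far under the lowest of them. The mean went from 95.4 ± 1.11 to 54.4 ± 3.65 CPM (SD, n = 3 each), 57.1% of the scrambled level. The log2 fold change of FLT3 was -0.81 (SE 0.0589, 95% interval -0.93 to -0.68, edgeR adjusted p = 3.77e-09).

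KIT (chromosome 4 of GRCh38, 54657267 to 54740783, plus strand) had the fewest counts of the tyrosine kinases, with 414, 544 and 354 counts in the scrambled samples and 209, 173 and 225 after NFIC KD. C3 was the highest and C4 the lowest of the scrambled samples, and N2 was the lowest of all. Its mean fell from 19.3 ± 2.79 to 9.12 ± 1.45 CPM (SD, n = 3 each), 47.3% of the scrambled level. The log2 fold change of -1.09 (SE 0.125, 95% interval -1.35 to -0.82, edgeR adjusted p = 1.43e-06) was larger in size than that of 90.1% of all genes tested. It was -1.03 without C3 and N3, and it lay between -1.19 and -0.95 when each sample was left out in turn, with an absolute value under 1 without C3 or without N2.

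The stretches before the start sites of KIT and FLT3 are shown because these receptors had the largest decreases. They are RefSeq promoter sequences (GRCh38.p14) cut to the bases outside the annotated exons of the gene, 5′ to 3′ on the gene's strand, chr4:54657707-54657888 on the plus strand and chr13:28100593-28100826 on the minus strand. The RefSeq start of KIT lies downstream of 54657267, where the gene span given above begins. The KIT stretch thus lies inside that span. Capitals mark the core motif of PU.1, a transcription factor of myeloid cells, searched as GAGGAA on both strands.
KIT: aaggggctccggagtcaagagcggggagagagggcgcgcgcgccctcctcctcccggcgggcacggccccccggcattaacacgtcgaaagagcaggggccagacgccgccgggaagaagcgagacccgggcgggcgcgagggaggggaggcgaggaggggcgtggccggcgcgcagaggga
FLT3: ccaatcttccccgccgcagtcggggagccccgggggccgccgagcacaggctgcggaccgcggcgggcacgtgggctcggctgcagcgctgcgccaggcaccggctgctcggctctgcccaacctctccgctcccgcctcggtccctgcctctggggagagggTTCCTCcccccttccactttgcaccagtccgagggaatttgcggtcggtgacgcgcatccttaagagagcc
The FLT3 stretch held 1 PU.1 core, and KIT held none in the 250 bases before its start. Of 34961 RefSeq promoters of that length, 23.6% held this core, so the match in FLT3 is a common one and says nothing on binding. The half-site of nuclear factor I, TTGGC or GCCAA, which 40.8% of all promoters held, was not found in either. CSF1R has a pair of listed start sites in RefSeq, and its upstream promoter held 2 half-sites and no PU.1 core, while the downstream one held 2 PU.1 cores and no half-site.

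CSF3R, the receptor for the neutrophil growth factor CSF3, which works as a homodimer, also fell. Its gene lies on chromosome 1 of GRCh38 from 36466043 to 36483278 on the minus strand. It had 4299, 4998 and 4451 counts in the scrambled samples and 2856, 3842 and 2963 after NFIC KD. N2 was the highest NFIC shRNA sample and still lay under all scrambled samples after scaling. The mean was 203 ± 4.57 CPM in scrambled and 144 ± 19.2 CPM in NFIC shRNA samples (SD, n = 3 each), a log2 fold change of -0.50 (SE 0.0736, 95% interval -0.65 to -0.34, edgeR adjusted p = 3.64e-05). Among the 11 neutrophil markers that were looked up, to which CSF3R belongs, 7 were tested. CSF3R was among the 6 that fell, and 1, CXCR2, rose, where 30.3% of all genes tested fell and 29.6% rose. Their summed level was 3920 to 4560 CPM in scrambled and 2210 to 2300 CPM in NFIC shRNA samples, mostly from the granule genes ELANE, AZU1 and PRTN3. The late marker LTF had at most 1 count in any sample. Whether the decreases of CSF3R and of these marker genes are linked was not tested.

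The receptors for CSF2 (GM-CSF) and IL3 share the signalling chain CSF2RB, the common beta subunit, and take their specificity from the alpha subunits CSF2RA and IL3RA. The subunits did not move alike. IL3RA had 301, 353 and 347 counts in the scrambled samples and 234, 271 and 303 after NFIC KD. After scaling, the highest NFIC shRNA sample, N3, lay just under the lowest scrambled sample. IL3RA fell from 14.8 ± 1.22 to 12.1 ± 0.948 CPM (SD, n = 3 each), with a log2 fold change of -0.30 (SE 0.0987, 95% interval -0.50 to -0.09, edgeR adjusted p = 0.0157). This call rests on few samples. The edgeR adjusted p was 0.0905 without C4 and 0.0761 without N1, with log2 fold changes of -0.23 and -0.25.

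CSF2RA had 411, 451 and 368 counts in the scrambled samples and 362, 400 and 420 after NFIC KD. The groups overlapped, at 18.2 ± 0.917 and 17.7 ± 0.490 CPM (SD, n = 3 each). The log2 difference of -0.04 had a 95% interval of -0.21 to 0.13 (edgeR adjusted p = 0.689). CSF2RB had 664, 726 and 740 counts in the scrambled samples and 775, 804 and 702 counts after NFIC KD, also with overlap. Its level was 31.6 ± 2.65 and 34.2 ± 3.60 CPM (SD, n = 3 each), a log2 difference of 0.12 with a 95% interval of -0.06 to 0.29 (edgeR adjusted p = 0.251). N3 was the lowest NFIC shRNA sample of CSF2RB, and without it the difference was 0.20 and passed the test (edgeR adjusted p = 0.0356). CSF2RA and IL3RA lie in the region that the X and Y chromosomes share. Their positions on X in GRCh38 are 1268800 to 1310381 and 1336616 to 1382689. Reads can map to both copies only where the reference holds both, which the sources used here do not state. CSF2RB lies on chromosome 22 from 36913628 to 36940439.

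IL6ST, or gp130, is the signalling chain shared by the receptors for IL6, IL11, OSM, LIF and related cytokines, and IL6R is the chain that binds IL6. Both rose, IL6ST by far the more. IL6ST had 541, 624 and 538 counts in the scrambled samples and 1533, 1632 and 1982 after NFIC KD. The scrambled samples were nearly equal after scaling, and each NFIC shRNA sample was far above them. The mean rose from 25.2 ± 0.175 to 76.9 ± 8.08 CPM (SD, n = 3 each), which is 3.05-fold (95% interval 2.74 to 3.41). Its log2 fold change of 1.61 (SE 0.0747, edgeR adjusted p = 2.34e-11) was larger in size than that of 96.7% of all genes tested. Over all alternatives it ranged from 1.53 to 1.68. IL6ST lies on chromosome 5 of GRCh38 from 55935095 to 55995022 on the minus strand, and a long noncoding RNA gene, ENSG00000262211, overlaps it on the opposite strand. That RNA had 80, 82 and 67 counts in the scrambled samples and 185, 213 and 267 after NFIC KD. Whether reads were counted by strand is not stated in the sources used here, so reads of IL6ST and of this RNA cannot be told apart.

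The bases before the start of IL6ST (chr5:55995023-55995213, minus strand, GRCh38.p14, from RefSeq, printed 5′ to 3′ without annotated exons) are shown because it had the largest change of the 10. Capitals mark the half-site of nuclear factor I, TTGGC or its complement GCCAA.
IL6ST: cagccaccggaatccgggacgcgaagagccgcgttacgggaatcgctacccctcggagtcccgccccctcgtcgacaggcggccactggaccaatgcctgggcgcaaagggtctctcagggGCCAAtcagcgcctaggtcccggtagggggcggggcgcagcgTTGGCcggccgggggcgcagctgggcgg
There were 2 half-sites and no PU.1 core in its promoter. A half-site was held by 40.8% of all promoters. It was also found for CSF1R, which fell, and for CSF2RA, which was not called. The other receptors with an entry held none. None of the 9 receptors with a RefSeq promoter entry held the full palindrome, TTGGC followed by GCCAA after a spacer of 5 bases, which occurred in 10 of all 34961 promoters. CSF2RB had no entry. These matches are descriptions of letters and not of binding.

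IL6R (chromosome 1 of GRCh38, 154405193 to 154469450, plus strand), the most abundant of the 10 per length, had 9051, 10453 and 9085 counts in the scrambled samples and 10339, 10349 and 11306 after NFIC KD. After scaling for depth every NFIC shRNA sample was above every scrambled sample, N2 by the smallest margin. The level rose from 423 ± 3.52 to 479 ± 29.3 CPM (SD, n = 3 each), to 113.4% of the scrambled level, with a log2 fold change of 0.18 (SE 0.0518, 95% interval 0.07 to 0.29, edgeR adjusted p = 0.00591). IL6R was thus called with a difference larger in size than that of only 26.4% of all genes tested. Its antisense gene IL6R-AS1 had between 15 and 27 counts in any sample.

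IFNGR1 (chromosome 6 of GRCh38, 137197483 to 137219449, minus strand), the chain that binds interferon gamma, had 1722, 1923 and 1679 counts in the scrambled samples and 1697, 1879 and 1763 after NFIC KD. The groups overlapped at 78.7 ± 0.783 and 79.9 ± 3.10 CPM (SD, n = 3 each). The log2 difference was 0.02 with a 95% interval of -0.09 to 0.13 (edgeR adjusted p = 0.751), and with upper-quartile scaling it was -0.04. Its partner IFNGR2, which brings JAK2 to the receptor, fell from 67.9 to 55.6 CPM, a log2 fold change of -0.29 (SE 0.0628, edgeR adjusted p = 0.000751).

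**Figure D2:**
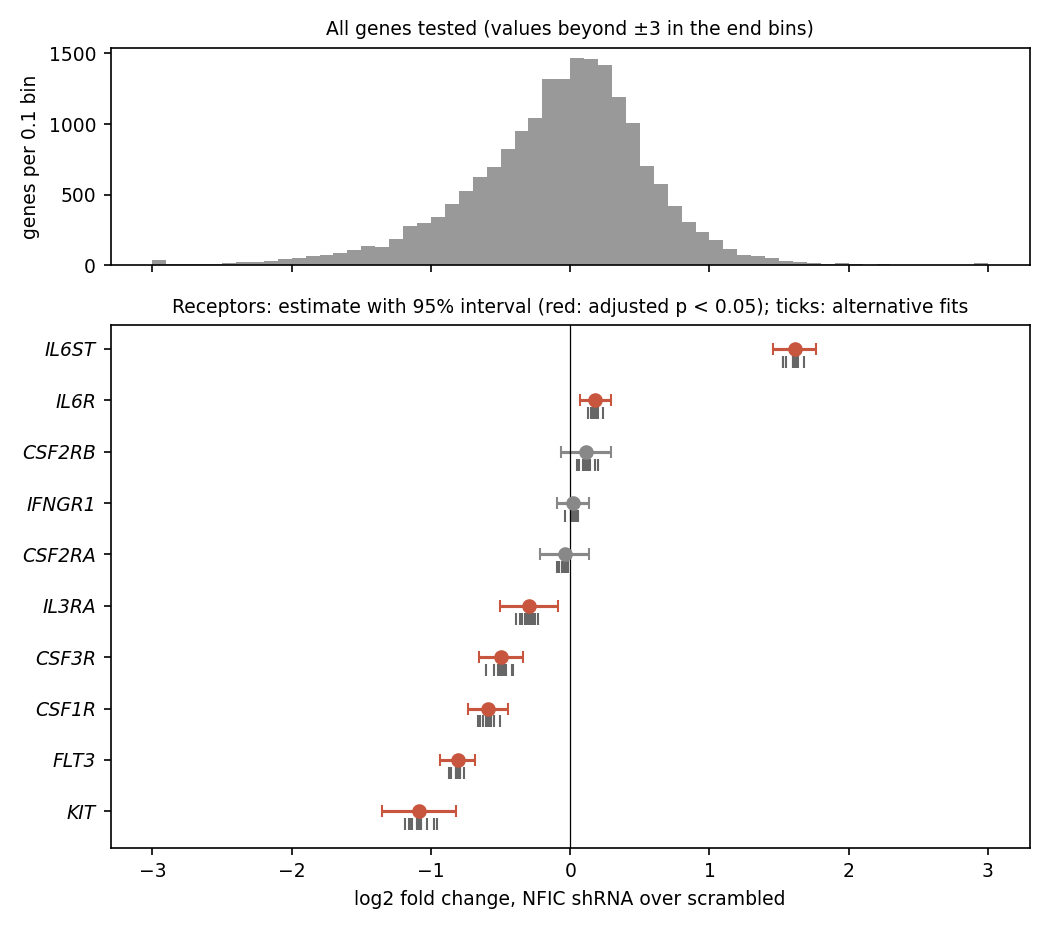
Log2 fold change, NFIC shRNA over scrambled (horizontal axis), of all 19182 genes tested as a histogram (top, number of genes per bin) and of each receptor (bottom) with its 95% interval; red marks an adjusted p under 0.05 and grey ticks are the estimates under 16 alternative fits. KIT at -1.09 and IL6ST at 1.61 lie at the ends, and the ticks of the receptor calls stay on 1 side of 0.

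Levels were compared between receptors only per transcript length, as the deposited FPKM. In the scrambled samples IL6R was the highest at 64.7 ± 0.718 FPKM, ahead of CSF1R at 42.1 ± 1.80 (SD, n = 3). CSF3R and IFNGR1 followed at 23.8 ± 0.609 and 23.7 ± 0.183 FPKM, and their samples overlapped. FLT3 came next at 22.7 ± 0.297 FPKM, below both. The remaining receptors lay far lower, in the order IL3RA (8.56 FPKM), CSF2RB (6.25), CSF2RA (4.69), KIT (3.42) and IL6ST (2.46), with no overlap between neighbours. IL6ST was thus the lowest of the 10 in the scrambled samples.

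With NFIC shRNA the order changed mainly through IL6ST, which stood at rank 6 at 7.59 ± 0.843 FPKM and overlapped with IL3RA at 7.04 ± 0.601, which in turn overlapped with CSF2RB at 6.85 ± 0.678 (SD, n = 3). IL6R stayed highest at 74.1 ± 4.57 FPKM. CSF1R at 28.3 FPKM and IFNGR1 at 24.3 FPKM came next without overlap, followed by CSF3R at 17.1, FLT3 at 13.1, CSF2RA at 4.61 and KIT at 1.64. With counts per kilobase after TMM scaling in place of FPKM, CSF1R and IFNGR1 overlapped, and 6 instead of 7 of the neighbouring pairs lay apart. Among protein-coding genes IL6ST moved from percentile 45.8 to 69.0 of FPKM, FLT3 from 89.9 to 80.6 and KIT from 52.0 to 41.3. The sum over the 10 receptors was 202 ± 3.10 FPKM in scrambled and 185 ± 4.45 FPKM in NFIC shRNA samples. IL6R made up 32.0% of it in scrambled and 40.2% in NFIC shRNA samples, CSF1R 20.8% and 15.3%, FLT3 11.2% and 7.08%, and IL6ST 1.21% and 4.11%.

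**Figure D3:**
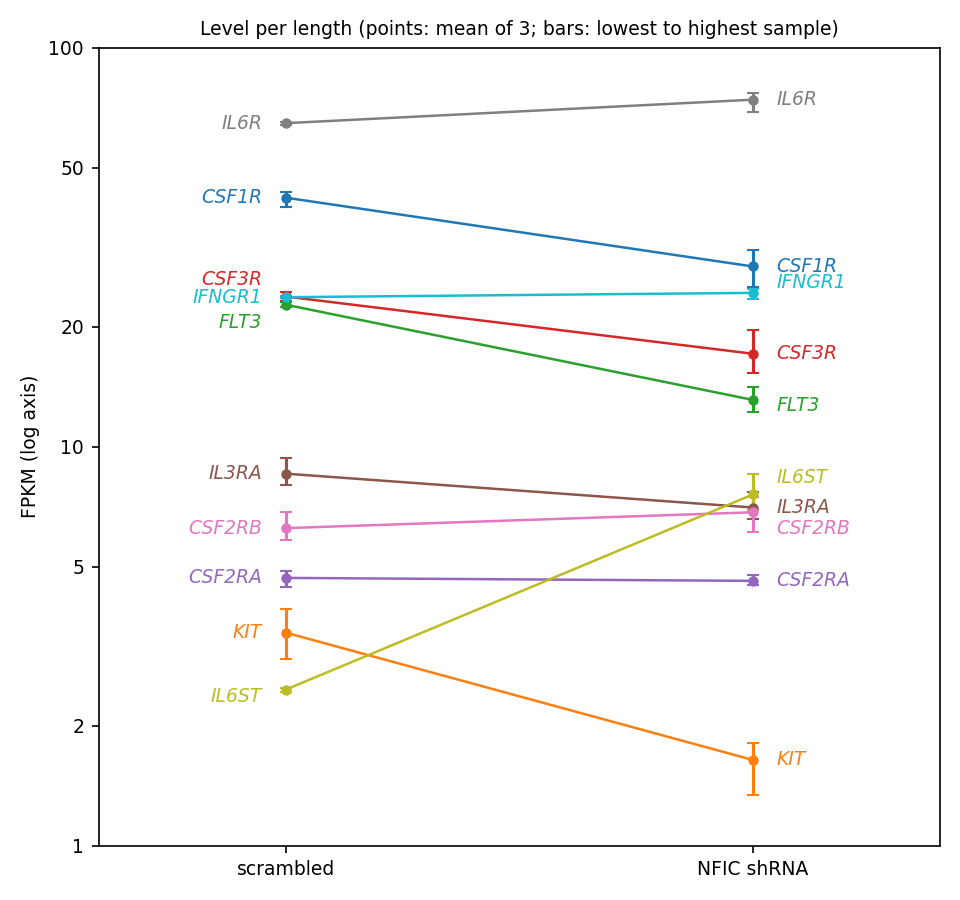
FPKM of each receptor (vertical log axis) in scrambled and NFIC shRNA samples; points are means of 3 samples and bars run from the lowest to the highest sample. The line of IL6ST rises from the lowest place, 2.46, to 7.59 FPKM and crosses those of KIT, CSF2RA, CSF2RB and IL3RA, while the lines of CSF1R, FLT3, CSF3R, KIT and IL3RA fall.

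The proportions of subunits that work together were compared within each sample on the FPKM scale, in 4 ratios. With 3 samples against 3 a two-sided exact permutation test cannot give a p under 0.1, so none can pass 0.05. For each FPKM of IL6ST there were 26.3 ± 0.133 of IL6R in scrambled and 9.82 ± 0.822 in NFIC shRNA samples (SD, n = 3 each). All NFIC shRNA samples lay far under the scrambled ones (exact permutation p = 0.1, adjusted over the 4 ratios 0.133). The ratio of IL3RA to CSF2RB was 1.37 ± 0.0480 in scrambled and 1.04 ± 0.196 in NFIC shRNA samples, without overlap (exact permutation p = 0.1, adjusted 0.133). CSF2RA to IL3RA went from 0.551 ± 0.0701 to 0.656 ± 0.0360, without overlap but by a small margin (exact permutation p = 0.1, adjusted 0.133). The highest scrambled sample, C1, was at 0.61 and the lowest NFIC shRNA sample, N3, at 0.619. The log2 difference of this ratio was 0.26, and 0.15 without C4. CSF2RA to CSF2RB overlapped between the groups, at 0.755 ± 0.0924 and 0.679 ± 0.0895 (exact permutation p = 0.3, adjusted 0.3), and its log2 difference of -0.15 lay between -0.26 and -0.079 when each sample was left out in turn.

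The other genes of these pathways were taken from 8 lists, together 165 genes without the receptors themselves. Of the 140 tested, 59 rose and 31 fell, which is 42.1% and 22.1% against 29.6% and 30.3% of all genes. Their median log2 fold change was 0.11. The counts given below for each list stand against the same 29.6% and 30.3% of all genes. The ligands were scarce. Of 17 looked up, 5 were tested, of which 2 fell and none rose. OSM, a gp130 cytokine, fell from 0.723 to 0.210 CPM (log2 fold change -1.76, SE 0.455, edgeR adjusted p = 0.00292). FLT3LG, the ligand of FLT3, had 39, 33 and 38 counts in the scrambled samples and 15, 28 and 22 after NFIC KD, all lower (log2 fold change -0.75, SE 0.270, edgeR adjusted p = 0.0238). KITLG, the ligand of KIT, was at 2.68 and 2.63 CPM (edgeR adjusted p = 0.920), and CSF1 was at 1.31 and 1.79 CPM (edgeR adjusted p = 0.159). IL34, CSF3 and IL6 had at most 3 counts in any sample and were not tested. No row under these symbols was found for CSF2, IL3 and IFNG, so they were not analysed here.

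Of 16 partner receptor subunits tested, 2 rose and 8 fell. IL10RA, the chain that binds IL10, rose from 9.97 to 19.8 CPM (log2 fold change 0.99, edgeR adjusted p = 1.37e-07), and the interferon receptor chain IFNAR2 rose by 0.31 on the log2 scale (edgeR adjusted p = 0.00128). IL12RB1, a chain of the IL12 and IL23 receptors, had a log2 fold change of -1.01, and IL27RA, which pairs with IL6ST, one of -0.58 (edgeR adjusted p = 1.31e-05 and 0.000234).

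Among 11 JAK kinases and STAT factors 5 rose and 3 fell. JAK2, which serves the receptors of the beta common family and of interferon gamma, rose from 40.1 to 76.4 CPM (log2 fold change 0.93, SE 0.0610, edgeR adjusted p = 1.04e-09). JAK1, which serves the gp130 and interferon receptors, fell from 90.7 to 51.1 CPM (log2 fold change -0.83, SE 0.0604, edgeR adjusted p = 3.91e-09). STAT3, which acts below IL6ST, rose by 0.61 on the log2 scale, to 207 CPM (edgeR adjusted p = 2.33e-08). STAT5A and STAT5B, which act below the beta common receptors and FLT3, had log2 fold changes of -0.47 and -0.22 (edgeR adjusted p = 0.000837 and 0.00979).

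Of 31 adaptors and kinases downstream, 15 rose and 4 fell. The PI3 kinase subunit PIK3CB and the tyrosine kinase FES rose by 0.98 and 0.65 on the log2 scale (edgeR adjusted p = 8.04e-11 and 2.94e-09). The docking protein GAB2, the PI3 kinase subunit PIK3R2 and the kinase MAP2K2 had log2 fold changes of -0.51, -0.38 and -0.24 (edgeR adjusted p = 0.00110, 0.000158 and 0.00314). Of 26 inhibitors and phosphatases 13 rose and 3 fell. SLA, an adaptor that lowers receptor levels, rose from 22.5 to 57.1 CPM, and SH2B3, an inhibitor of JAK2 signalling, and the phosphatase PTPRJ rose by 0.69 and 0.60 on the log2 scale (edgeR adjusted p = 2.89e-09, 6.68e-09 and 1.40e-07). PTPN2, a phosphatase that acts on JAK and STAT proteins, had a log2 fold change of -0.37 (edgeR adjusted p = 0.000323), and the low-level genes STAP2 and USP18 had values of -1.64 and -0.57 (edgeR adjusted p = 0.00552 and 0.0422).

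The shedding list held 10 proteases, their partners and an inhibitor, of which 4 rose and 3 fell. ADAM10, which cuts receptors such as IL6R from the cell surface, rose from 205 to 344 CPM (log2 fold change 0.75, SE 0.0512, edgeR adjusted p = 1.69e-09). ADAM17, which sheds CSF1R and IL6R among others, was at 81.3 and 85.3 CPM (edgeR adjusted p = 0.293). The inhibitor TIMP3 and the ADAM17 cofactor RHBDF1 had log2 fold changes of -1.39 and -1.17 (edgeR adjusted p = 4.34e-06 and 4.17e-05). NCSTN, a subunit of gamma-secretase, rose by 0.24 on the log2 scale, and another subunit, PSENEN, had a log2 fold change of -0.37 (edgeR adjusted p = 0.000253 and 0.000207).

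Of 26 genes known to respond to these cytokines 13 rose and 7 fell. Of the 26, 6 were called with an absolute log2 fold change of at least 1, against 11.9% of all genes tested. IRF1 and GBP4, known interferon gamma targets, rose by 1.11 and 1.31 on the log2 scale, and the cyclin CCND3 rose by 0.93 (edgeR adjusted p = 1.44e-10, 5.52e-08 and 9.02e-09). MYC, ID1 and the cyclin CCND1 had log2 fold changes of -1.39, -2.02 and -1.24 (edgeR adjusted p = 2.37e-11, 3.66e-07 and 5.88e-05). Of 17 transcription factors known from the regulation of receptor genes 7 rose and 3 fell. CEBPA, known to act on the CSF3R gene, fell from 595 to 419 CPM, a log2 fold change of -0.51 (edgeR adjusted p = 1.91e-06), and TFEB had one of -0.47 (edgeR adjusted p = 0.00331). CEBPE, GATA2 and CBFB rose by 0.72, 0.52 and 0.51 on the log2 scale (edgeR adjusted p = 4.08e-05, 0.00144 and 5.09e-07). SPI1, which encodes PU.1, and RUNX1 were at 167 and 178 CPM and at 233 and 228 CPM in scrambled and NFIC shRNA samples (edgeR adjusted p = 0.112 and 0.552).

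**Figure D4:**
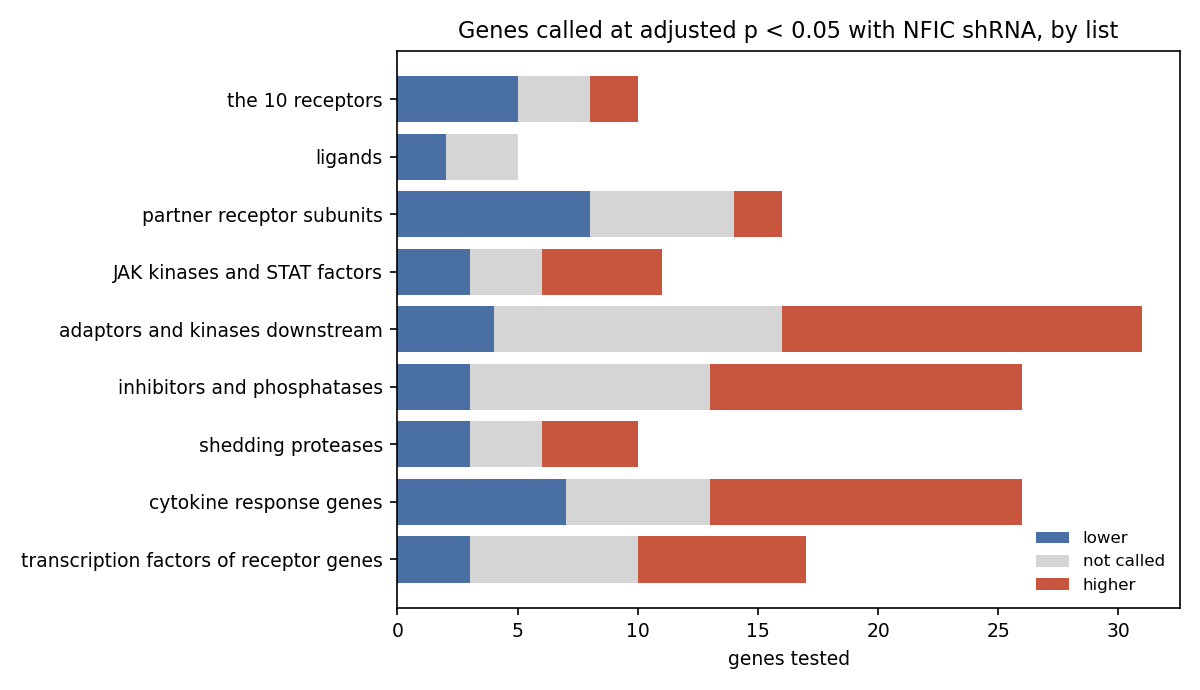
Number of genes tested (horizontal axis) that were lower, not called or higher after NFIC KD (edgeR adjusted p under 0.05), for the 10 receptors and for each of the 8 lists of pathway genes, whose members can stand in more than 1 list. The receptors have 5 lower and 2 higher, the partner subunits 8 lower and 2 higher, and the downstream adaptors and kinases 4 lower and 15 higher. Over all genes tested, 30.3% were lower and 29.6% higher.

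For the 3 receptors with the smallest adjusted p, the genes with the most similar pattern were sought over all 6 samples, by the root mean square distance of log2 CPM relative to the scrambled mean. A small constant was added to the CPM before the log was taken. Nearest to IL6ST were TWF1, a regulator of actin, at a distance of 0.0555 and NCF1, a subunit of the phagocyte oxidase, at 0.0575, with log2 fold changes of 1.55 and 1.61. NCF1 shares reads with near-identical pseudogenes, so its value is uncertain. Nearest to FLT3 were DDX31 at 0.0275 and ERAP1 at 0.0354, with log2 fold changes of -0.81 and -0.82. For KIT they were SUSD5 at 0.0481 and TLX1 at 0.0802, with log2 fold changes of -1.11 and -1.38. The added constant shrinks differences at low levels. The log2 fold change of TLX1 lies further from that of KIT than 0.0802 would allow without the constant. These distances describe 6 samples in 2 groups, and many genes share such a pattern.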

How the data were processed

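Bulk mRNA was sequenced in 3 scrambled and 3 NFIC shRNA samples of THP-1 cells. Per the labels and the methods of the study, Trim Galore was used for trimming, STAR for mapping to GRCh38 and featureCounts for assigning reads to Ensembl 96 genes, and the deposited counts are whole reads per gene without normalization. The deposited FPKM were made by the authors from counts divided by a DESeq2 size factor, the gene length and 1 total shared by all samples. The gene length is also deposited. The authors' own fold changes and p-values were not used.

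Counts were analysed with edgeR 4.0.16 in R 4.3.3 (TMM, filter on low counts, robust quasi-likelihood test, no covariate), with Benjamini-Hochberg adjustment over 19182 genes. The SE is the size of the log2 fold change divided by the square root of F, and intervals use the t distribution. The steps were tested on simulated data with 200 genes changed. That is far fewer than were called here, so the simulation does not cover a shift as wide as this one. Alternatives were DESeq2 1.42.0, limma-voom 3.58.1, other scalings and filters, samples left out and replicate blocks. Positions are from GENCODE 44 and promoters from RefSeq, of which 9 of the 10 receptors had one. Counts between samples of a group differed by more than sampling noise. Named genes are the 10 receptors, NFIC, genes with a direct role for a receptor, up to 3 genes of each list in each direction by adjusted p, and the nearest patterns. Some genes chosen by this rule are not reported here. SPI1 and RUNX1, the granule genes and the monocyte markers are outside this rule, chosen once their values were known. The receptors and lists were chosen with earlier results of these data known.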

Additional observations from a re-analysis of the deposited data

How the results depend on the processing

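Over 16 alternatives, CSF1R, KIT, FLT3, CSF3R, IL6R and IL6ST kept their direction and passed the threshold in each. IL3RA ranged from -0.36 to -0.23 when each sample was left out and lost its call without C4 or without N1. CSF2RB ranged from 0.049 to 0.20 and gained a call without N3. Receptors with an absolute log2 fold change of at least 1 numbered 1 or 2, since KIT fell under it without C3 or without N2. IFNGR1 changed sign without a call, from -0.04 to 0.06 over all alternatives. With each sample left out, the log2 differences of the subunit ratios ranged from -1.48 to -1.36 (IL6R to IL6ST), -0.56 to -0.30 (IL3RA to CSF2RB), 0.15 to 0.33 (CSF2RA to IL3RA) and -0.26 to -0.079 (CSF2RA to CSF2RB). The causes were not tested.

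To see whether the replicate numbers pair the samples, deviations from the group mean of same-numbered samples were correlated over genes. The correlations were 0.0563, -0.0862 and -0.0446 by the labels' number, and 0.0563, 0.145 and 0.0267 by the titles' number. With 3 samples per group such values cannot tell whether the samples were paired. With a replicate block by the labels' number, 5439 genes rose and 5544 fell, and with a block by the titles' number, in which C3 and N3 form a pair, 5981 rose and 6118 fell, against 5676 and 5810 without a block. IL6ST was at 1.61 in both. Neither block changed a call among the receptors. For CSF2RA, CSF2RB and IFNGR1 the data do not exclude differences of the sizes within their intervals.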
